A study of Mus musculus with 18 samples.

Results

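Transcripts of 6 genes were followed: the macrophage growth factor gene Csf1, Il34, which encodes the other ligand of the same receptor, the receptor gene Csf1r, the granulocyte-macrophage and granulocyte colony-stimulating factor genes Csf2 and Csf3, and Lif, which encodes leukemia inhibitory factor. The genes were taken by symbol, matched to the Entrez Gene identifiers of the deposited tables. They are 6 of the 36528 genes listed, and all 6 were among the 15521 genes tested, those with over 10 reads in 4 or more samples.

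The cells were primary renal tubular epithelial cells (RPTEC) of C57BL/6 mice, bought from a supplier and grown in epithelial medium. They received DMSO alone (vehicle), TWEAK at 100 ng/mL, or TWEAK at 100 ng/mL together with NIK SMI1 at 3 µM, and RNA was sequenced after 6 h and after 24 h, with 3 samples in each of the 6 groups. TWEAK is a TNF family cytokine that signals through the receptor Fn14, NIK is the kinase that starts the non-canonical NF-κB pathway, and NIK SMI1 is a small-molecule inhibitor of NIK. No group received NIK SMI1 without TWEAK, so its effect could be measured only in TWEAK-treated cells. The labels do not say that the samples came from separate animals or preparations, and p-values therefore measure the spread between cultured samples, which may be technical.

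CSF1 and IL-34 bind the same receptor tyrosine kinase, CSF1R, through which macrophages survive, divide and mature, and tubular epithelium is a known source of both ligands in the kidney. GM-CSF, the product of Csf2, and G-CSF, the product of Csf3, act on myeloid cells through receptors of their own. LIF belongs to the interleukin-6 family and signals through LIFR paired with gp130, which is encoded by Il6st.

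Between 18040966 and 51956444 reads per sample were assigned to genes, so that 3 reads equalled 0.0577 to 0.166 counts scaled to 1000000 reads (CPM). The 9 renal epithelial markers were all detected and summed to 8181 to 10806 CPM. Of 10 proximal tubule markers 5 passed the filter, with a sum of 11.0 to 14.9 CPM, most of it from Slc5a2 at group means of 6.51 to 8.11 CPM and Cubn at 2.14 to 4.35 CPM. Slc22a8 and Miox, also on that list, had 0 reads in every sample, and Slc34a1 and Slc22a6 had at most 1. Markers of leukocytes summed to at most 0.457 CPM. Fibroblast and pericyte markers summed to 13.4 to 19.8 CPM and endothelial markers to 19.0 to 45.9 CPM, of which Flt1 made up most and Emcn had 0 reads. Markers of pancreatic islet cells summed to 15.8 to 32.8 CPM in the 3 groups at 6 h and with vehicle at 24 h. The TWEAK samples at 24 h stood at 15.4, 0.321 and 4.85 CPM, and those given both agents at 24 h at 0.135 to 0.232 CPM. Because the 3 TWEAK samples at 24 h differed in this respect, results at 24 h were also computed without the samples at 15.4 and 4.85 CPM. These results are given below, as effect sizes, where a call changed. That fit leaves 1 TWEAK sample at 24 h, which is assumed to vary like the samples of the other groups. It makes fewer calls over all genes as well. The sample left, at 0.321 CPM, lies below the vehicle samples at 24 h, at 15.8 to 22.2 CPM. In that fit, TWEAK cannot be told apart from islet reads when compared with vehicle at 24 h. The same holds in every fit for both agents against vehicle at 24 h, since their samples do not overlap in islet reads. The main fit has this limit for TWEAK against vehicle at 24 h too, with at most 15.4 against at least 15.8 CPM. Samples with both agents at 24 h (at most 0.232 CPM) likewise lay below all TWEAK samples (at least 0.321 CPM). Differences between agents at 24 h therefore cannot be told apart from differences in islet reads.

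Promoter sequences are shown for Csf1, Csf2 and Lif, the 3 genes with a promoter in the reference set used. Csf3, Il34 and Csf1r had none there and were not searched. The 3 genes shown were also those with the highest fold changes under TWEAK at 6 h. Each is the 250 bases before the transcription start in RefSeq (build GRCm38.p6), written 5′ to 3′ on the strand of the gene, with capitals for matches to the consensus κB site of NF-κB or to the AP-1 site TGANTCA, both searched on either strand. The windows lie at chr3:107760470-107760719 (minus strand) for Csf1, chr11:54249900-54250149 (minus strand) for Csf2 and chr11:4257318-4257567 (plus strand) for Lif.
Csf1: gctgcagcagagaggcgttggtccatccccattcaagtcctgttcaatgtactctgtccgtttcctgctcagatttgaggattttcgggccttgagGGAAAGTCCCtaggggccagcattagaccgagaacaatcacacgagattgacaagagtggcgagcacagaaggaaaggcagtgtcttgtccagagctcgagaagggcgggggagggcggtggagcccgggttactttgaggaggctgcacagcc
Csf2: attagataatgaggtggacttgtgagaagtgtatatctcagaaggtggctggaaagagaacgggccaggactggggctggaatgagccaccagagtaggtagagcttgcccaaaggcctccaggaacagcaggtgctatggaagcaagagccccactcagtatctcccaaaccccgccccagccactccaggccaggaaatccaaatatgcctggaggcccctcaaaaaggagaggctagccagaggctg
Lif: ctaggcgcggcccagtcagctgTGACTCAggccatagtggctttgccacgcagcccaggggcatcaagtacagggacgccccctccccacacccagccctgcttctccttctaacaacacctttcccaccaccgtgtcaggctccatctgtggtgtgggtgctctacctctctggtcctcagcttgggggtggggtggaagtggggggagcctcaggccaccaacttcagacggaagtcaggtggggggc
Csf1 held 1 match to the κB consensus, GGAAAGTCCC as read on the strand of the gene, with its first base 154 bases before the start. Of 32851 RefSeq windows of the same length, 1281 (3.9%) held such a match. Lif held 1 AP-1 match, TGACTCA, which reads the same on both strands apart from its middle base, with its first base 228 bases before the start, and 2217 of the windows (6.75%) held this site. Neither motif was found in the Csf2 window. The RefSeq start used for Csf2 lies 232 bases upstream of the start in the GENCODE annotation, so the bases directly before the GENCODE start are not in the window shown. AP-1 was added to the search after the sequences had been seen, and a match describes letters only.

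TWEAK raised most of these genes. At 6 h, 5 of the 6 were higher than with vehicle (Csf1, Csf2, Csf3, Il34 and Lif) and 0 were lower, against 11.7% of all tested genes higher and 12.0% lower. At 24 h, 5 were higher (Csf1, Csf1r, Csf2, Il34 and Lif) and 1, Csf3, was lower, against 18.3% and 20.7% of all tested genes. Over the 6 genes the median log2 fold change under TWEAK was 0.37 at 6 h and 0.63 at 24 h, beside -0.0034 and -0.0055 over all tested genes. A call was an adjusted p below 0.05 in edgeR's quasi-likelihood test with Benjamini-Hochberg adjustment over all 15521 genes. Csf1 and Csf2 were among the genes that the study picked from these same samples for display. All 6 genes were chosen with earlier results of these data known, so neither their direction nor the number called is independent evidence. In bulk RNA, a change in the number of cells that express a gene cannot be told apart from a change in RNA per cell.

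With NIK SMI1 added to TWEAK, 3 of the 6 genes were lower at 6 h (Csf1, Csf2 and Lif) and 4 at 24 h (these and Csf1r), against 5.70% and 8.29% of all tested genes. None of the 6 was higher at either time, against 5.34% and 10.2%. With the inhibitor their median was -0.15 at 6 h and -0.43 at 24 h, beside 0.0029 and 0.0083 over all tested genes. These comparisons use the same TWEAK samples as the comparisons with vehicle, and so the values are set side by side without a test of their relation.

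**Figure D1:**
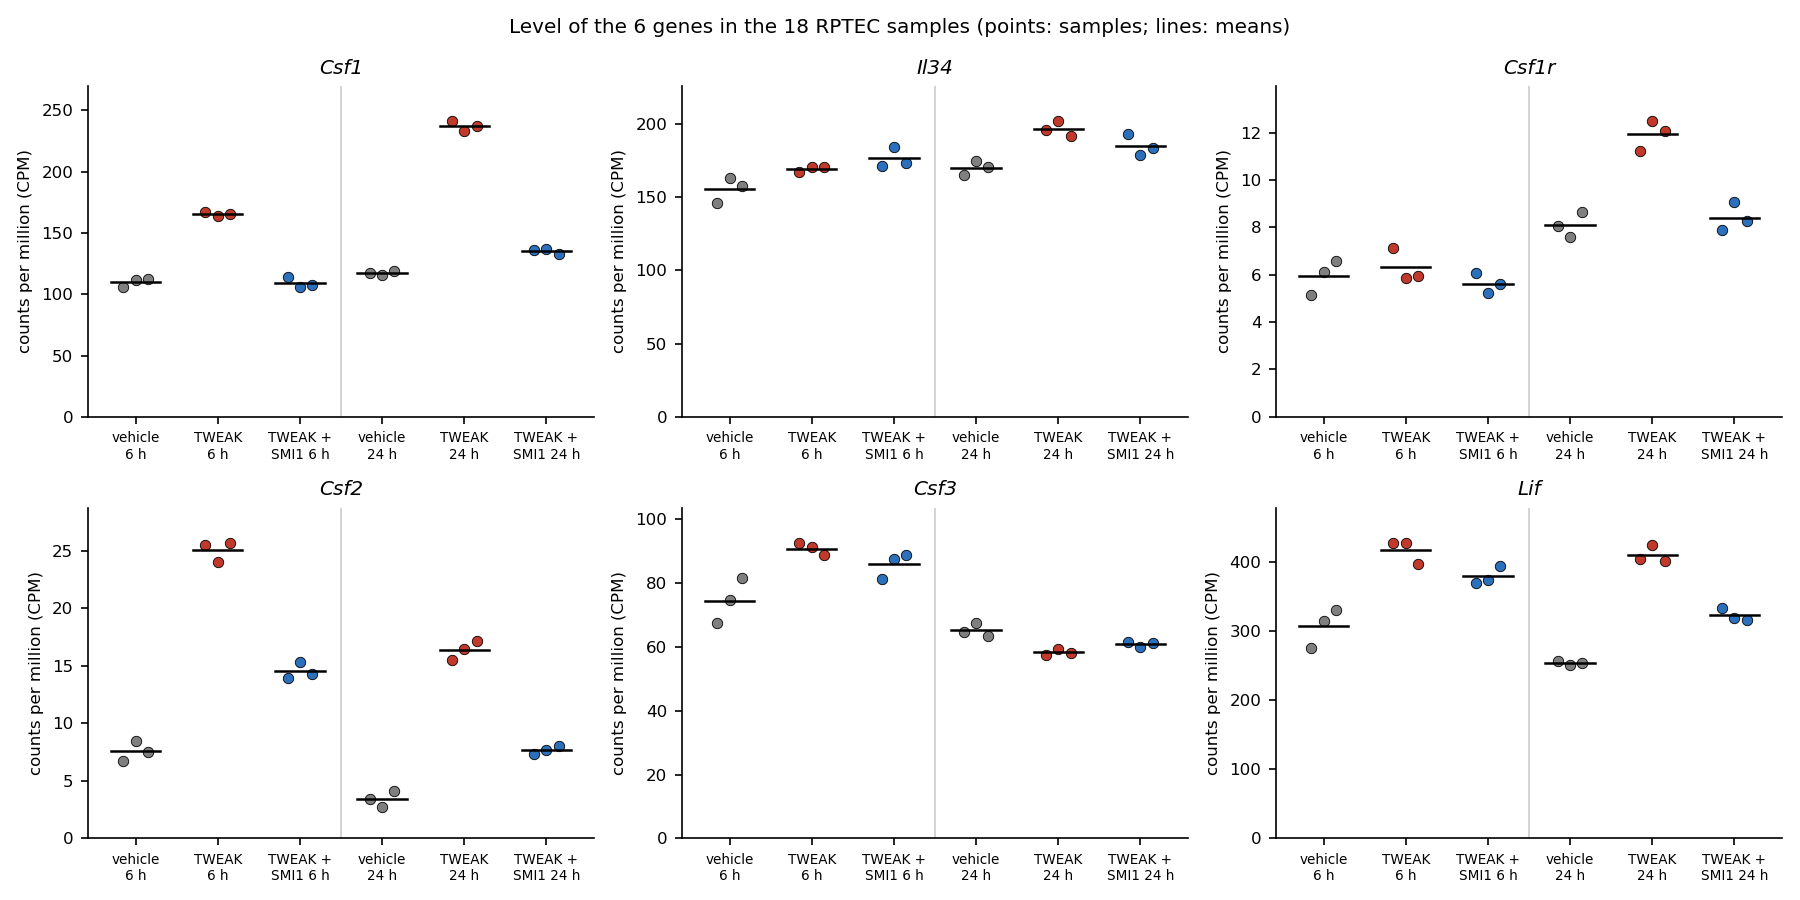
CPM of the 6 genes in the 18 samples, by group, with the axis of each panel starting at 0; points are samples and lines are means of 3. Csf1 under TWEAK reaches 233 to 241 CPM at 24 h, and with NIK SMI1 it lies at 133 to 137 CPM.

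Csf1 rose under TWEAK at both times, and with NIK SMI1 it overlapped the vehicle samples at 6 h and lay slightly above them at 24 h. With vehicle at 6 h the 3 samples held 106, 112 and 112 CPM, with TWEAK 167, 164 and 165 CPM, and with TWEAK and NIK SMI1 114, 106 and 107 CPM. The TWEAK samples all lay above the other samples, while vehicle and NIK SMI1 samples overlapped. By 24 h vehicle samples held 117, 116 and 119 CPM, TWEAK samples 241, 233 and 238 CPM, and samples with NIK SMI1 136, 137 and 133 CPM. Here none of the 3 groups overlapped, and NIK SMI1 samples lay between the other groups, near vehicle. The TWEAK effect on Csf1 was 1.51-fold at 6 h (log2 fold change 0.60, SE 0.033, adjusted p = 5.57e-14, edgeR) and 2.02-fold at 24 h (1.02, SE 0.033, adjusted p = 4.58e-19). NIK SMI1 lowered it 1.52-fold (-0.60, SE 0.034, adjusted p = 9.29e-13) and 1.76-fold (-0.81, SE 0.033, adjusted p = 2.1e-16). What remained above vehicle was not detectable at 6 h, with a log2 difference of -0.0047 and an interval of 2 SE from -0.073 to 0.063. At 24 h a rise of 1.15-fold over vehicle was left (0.20, SE 0.034, adjusted p = 4.93e-05), between groups that also differed in islet reads.

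Il34 was highly expressed in every group and changed little. Its samples held 146, 163 and 157 CPM with vehicle at 6 h, 167, 171 and 171 CPM with TWEAK, and 171, 184 and 174 CPM with TWEAK and NIK SMI1. Samples at 24 h held 165, 174 and 170 CPM, then 195, 202 and 192 CPM, and then 193, 179 and 183 CPM. TWEAK samples lay above vehicle samples at both times without overlap, and at 24 h the samples with NIK SMI1 overlapped the TWEAK samples. The TWEAK effect on Il34 was 1.10-fold at 6 h (log2 0.14, SE 0.038, adjusted p = 0.00796, edgeR) and 1.16-fold at 24 h (0.21, SE 0.038, adjusted p = 6.91e-05). The smaller of these lost its call when vehicle sample 1 at 6 h was left out (log2 0.10, adjusted p = 0.0575). NIK SMI1 gave no call, with log2 differences from TWEAK of 0.05 at 6 h (2 SE from -0.025 to 0.13, adjusted p = 0.458) and -0.09 at 24 h (2 SE from -0.16 to -0.013, adjusted p = 0.11). With TWEAK and NIK SMI1, Il34 was above vehicle by 0.19 on the log2 scale at 6 h (adjusted p = 0.00103) and by 0.12 at 24 h (adjusted p = 0.027), the latter without a call when any of 4 samples was left out (adjusted p 0.0508 to 0.146).

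The balance of the ligands of CSF1R was read per length, as the ratio of RPKM (reads scaled for exon length and for the total reads of a sample) in the same sample. Il34 exceeded Csf1 in all 18 samples. The ratio of Il34 to Csf1 was 2.80 ± 0.0876 (SD, n = 3) with vehicle at 6 h, 2.04 ± 0.0447 with TWEAK, and 3.21 ± 0.225 with both agents. At 24 h the same groups stood at 2.88 ± 0.0985, 1.64 ± 0.0637 and 2.72 ± 0.107. TWEAK samples lay below all others at their time. The ratio depends on the exon lengths in the files, 2233 bases for Il34 and 4432 bases for Csf1, which differ from 1959 and 5281 bases in GENCODE, and its level is accordingly less certain than its differences between groups.

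**Figure D2:**
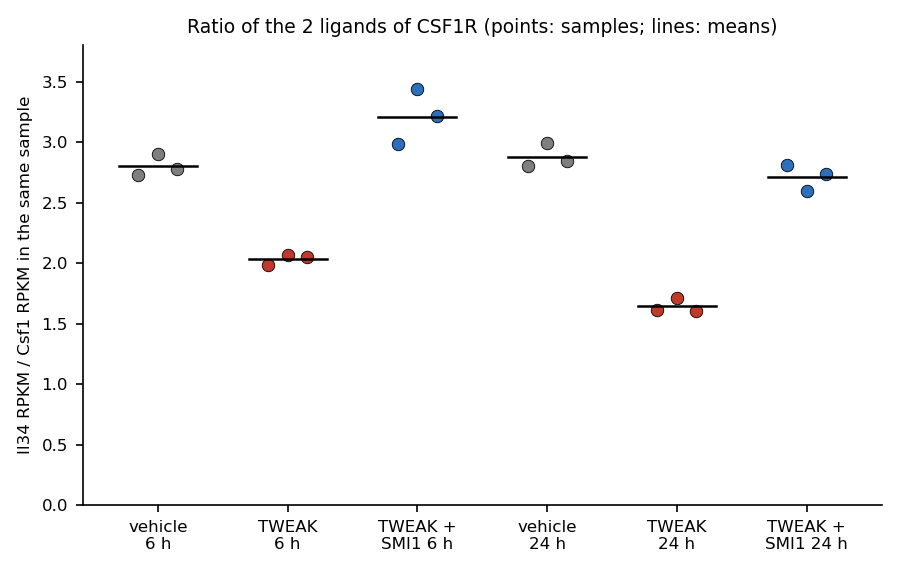
Ratio of Il34 RPKM to Csf1 RPKM in each of the 18 samples, on an axis from 0; points are samples and lines are means of 3. TWEAK samples span 1.99 to 2.07 at 6 h and 1.60 to 1.72 at 24 h, below all samples of the other groups, which span 2.60 to 3.44.

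Csf1r, which encodes the receptor of both ligands, had the lowest RPKM of the 6 genes in every group and rose with TWEAK at 24 h, with no call at 6 h. Samples at 6 h held 5.15, 6.12 and 6.60 CPM with vehicle, 7.12, 5.88 and 5.97 CPM with TWEAK, and 6.07, 5.23 and 5.60 CPM with TWEAK and NIK SMI1, and these groups overlapped. By 24 h they held 8.04, 7.61 and 8.64 CPM with vehicle, 11.2, 12.5 and 12.1 CPM with TWEAK, and 7.90, 9.08 and 8.25 CPM with both agents. The 3 TWEAK samples at 24 h were the highest of all 18, while vehicle and NIK SMI1 samples overlapped. TWEAK changed Csf1r by 0.08 on the log2 scale at 6 h (2 SE from -0.12 to 0.28, adjusted p = 0.656, edgeR) and raised it 1.48-fold at 24 h (0.57, SE 0.096, adjusted p = 2.37e-05). NIK SMI1 lowered it 1.43-fold at 24 h (-0.52, SE 0.091, adjusted p = 0.000107), and at 6 h the log2 difference was -0.16 (2 SE from -0.37 to 0.059, adjusted p = 0.416). Against vehicle, samples with both agents differed by -0.08 at 6 h and 0.05 at 24 h on the log2 scale, with adjusted p of 0.709 and 0.817.

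Because CSF1R is best known from macrophages, their markers are given beside it. Of 15 macrophage and monocyte markers 6 passed the filter, and C1qb, C1qc and Tyrobp had 0 reads in all samples, while Lyz2, Fcgr1 and Cx3cr1 had at most 3. The summed level of the list was 52.9 to 57.5 CPM with vehicle, 83.3 to 91.7 CPM with TWEAK and 62.2 to 70.7 CPM with TWEAK and NIK SMI1 at 6 h. At 24 h it was 49.7 to 55.8, 61.7 to 64.3 and 45.6 to 51.9 CPM, so that the sum was highest under TWEAK at both times, whereas Csf1r gave a call at 24 h and not at 6 h. Most of it was Cd14, the co-receptor for bacterial lipopolysaccharide, at means of 33.5 to 67.7 CPM, and Cd68, a lysosomal glycoprotein, at 11.8 to 13.4 CPM. Of the 6 markers tested, Cd14, Mrc1 and Mpeg1 rose with TWEAK at both times, and Spi1, which encodes the myeloid transcription factor PU.1, fell at 24 h from 0.673 to 0.263 CPM. NIK SMI1 lowered Mrc1 and Cd14 at 6 h (log2 -1.47 and -0.47) and Mrc1, Mpeg1 and Cd14 at 24 h (-1.82, -0.81 and -0.33, adjusted p = 9.36e-09, 0.011 and 0.000715), as it lowered Csf1r at 24 h. The part of other cells in the Csf1r result was not tested.

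Csf2 had the highest fold change of the 6 under TWEAK at both times. With vehicle at 6 h its samples held 6.74, 8.44 and 7.49 CPM, with TWEAK 25.5, 24.0 and 25.7 CPM, and with TWEAK and NIK SMI1 13.9, 15.3 and 14.3 CPM. The corresponding samples at 24 h held 3.41, 2.74 and 4.10 CPM, then 15.5, 16.4 and 17.2 CPM, and then 7.36, 7.71 and 8.06 CPM. The 3 groups did not overlap at either time, and samples with NIK SMI1 lay between vehicle and TWEAK. TWEAK raised Csf2 3.33-fold at 6 h (log2 1.74, SE 0.080, adjusted p = 1.3e-15, edgeR) and 4.79-fold at 24 h (2.26, SE 0.10, adjusted p = 3.76e-16). NIK SMI1 lowered it 1.73-fold (-0.79, SE 0.078, adjusted p = 2.92e-08) and 2.14-fold (-1.10, SE 0.084, adjusted p = 1.15e-10). Left above vehicle were 1.92-fold at 6 h (0.94, adjusted p = 8.47e-09) and 2.24-fold at 24 h (1.16, adjusted p = 7.21e-09). Csf2 also fell with time in vehicle, 2.31-fold between 6 h and 24 h (-1.21, SE 0.11, adjusted p = 1.57e-09), so its level under TWEAK was lower at 24 h than at 6 h although the fold change was higher.

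Csf3 rose under TWEAK at 6 h and was slightly lower at 24 h. At 6 h its samples held 67.4, 74.6 and 81.5 CPM with vehicle, 92.6, 91.2 and 88.7 CPM with TWEAK, and 81.1, 87.7 and 88.7 CPM with both agents. At 24 h the values were 64.7, 67.6 and 63.5 CPM, then 57.5, 59.4 and 58.1 CPM, and then 61.4, 60.0 and 61.3 CPM. TWEAK and vehicle samples did not overlap at either time, but their order turned. The difference was 1.23-fold higher at 6 h (log2 0.29, SE 0.045, adjusted p = 1.07e-05, edgeR) and 1.12-fold lower at 24 h (-0.16, SE 0.048, adjusted p = 0.00951). The lower level at 24 h lost its call without vehicle sample 2 (-0.14, adjusted p = 0.0507). With 1 TWEAK sample left after leaving out the 2 with islet reads the difference was -0.14. That sample differed from vehicle in islet reads as well. NIK SMI1 gave no call for Csf3, with log2 differences from TWEAK of -0.09 at 6 h (2 SE from -0.18 to 0.0019, adjusted p = 0.244) and 0.06 at 24 h (2 SE from -0.038 to 0.15, adjusted p = 0.483). Samples with both agents remained above vehicle at 6 h by 0.20 on the log2 scale (adjusted p = 0.00313) with overlap, and differed by -0.10 at 24 h (adjusted p = 0.151). The exon length of Csf3 in the files, 4023 bases, exceeds the 1413 exonic bases of GENCODE, so reads outside the GENCODE exons could count toward it. Its neighbours Psmd3, a proteasome subunit gene, and Med24, a Mediator subunit gene, were higher with TWEAK by 0.17 and 0.15 at 6 h and by 0.18 and 0.16 at 24 h on the log2 scale (adjusted p 0.000108 to 0.0112). Their part in the Csf3 counts was not tested. The exon length in the files also exceeds that of GENCODE for Csf2 (1323 against 800 bases), Lif (6632 against 4350) and Il34 (2233 against 1959). Reads outside the GENCODE exons could therefore count toward these genes as well.

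Lif was the gene with the most reads of the 6 in every sample. With vehicle at 6 h it stood at 276, 314 and 331 CPM, with TWEAK at 428, 427 and 397 CPM, and with TWEAK and NIK SMI1 at 369, 374 and 395 CPM. At 24 h the samples held 257, 251 and 254 CPM, then 405, 425 and 401 CPM, and then 334, 318 and 317 CPM. None of the 3 groups overlapped at either time, although the gap between TWEAK and NIK SMI1 samples at 6 h was 395 against 397 CPM. TWEAK raised Lif 1.37-fold at 6 h (log2 0.45, SE 0.042, adjusted p = 1.56e-09, edgeR) and 1.61-fold at 24 h (0.69, SE 0.042, adjusted p = 2.56e-13). NIK SMI1 lowered it 1.27-fold at 24 h (-0.35, SE 0.042, adjusted p = 3.83e-07). At 6 h the decrease was 1.10-fold (-0.14, SE 0.042, adjusted p = 0.0239), and its call was lost on leaving out TWEAK sample 1 or 2 or NIK SMI1 sample 1 or 2 (adjusted p 0.0868 to 0.107). A rise over vehicle was left at both times, 0.31 at 6 h (adjusted p = 5.14e-06) and 0.34 at 24 h (adjusted p = 6.61e-07) on the log2 scale.

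**Figure D3:**
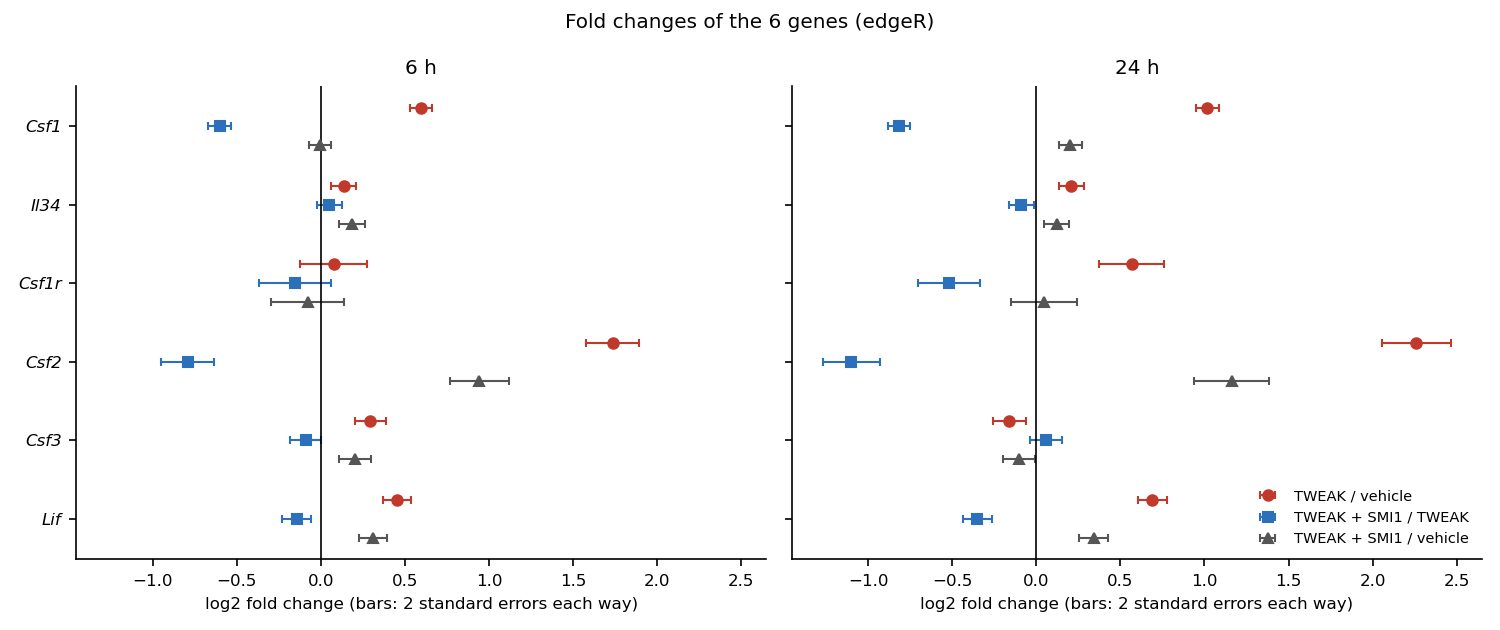
Log2 fold changes of the 6 genes at 6 h (left) and 24 h (right) for TWEAK against vehicle, TWEAK with NIK SMI1 against TWEAK, and TWEAK with NIK SMI1 against vehicle; bars reach 2 standard errors each way. Csf2 stands farthest from 0 under TWEAK (1.74 and 2.26), and Csf1 with both agents lies at -0.0047 at 6 h and 0.20 at 24 h.

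Relative to vehicle, 4 of the 6 genes were still higher with TWEAK and NIK SMI1 at 6 h (Csf2, Csf3, Il34 and Lif) and 4 at 24 h (Csf1, Csf2, Il34 and Lif), against 7.23% and 8.07% of all tested genes. At 24 h these groups also differed in islet reads, and the part of that difference was not tested. The share of the TWEAK rise that was absent with NIK SMI1 was computed from log2(CPM + 0.5), with the SD over the 3 NIK SMI1 samples. For Csf1 it was 102% ± 9.34 at 6 h and 79.6% ± 2.04 at 24 h. Csf2 lost 45.9% ± 4.18 and 49.0% ± 2.93, and Lif 30.6% ± 11.4 and 49.96% ± 6.09. Csf1r, called only at 24 h, lost 90.5% ± 18.2. Of the genes with no call for NIK SMI1, Il34 had shares of -45.0% ± 43.3 at 6 h, a negative share meaning a level above TWEAK, and 40.8% ± 26.5 at 24 h, and Csf3 had 28.3% ± 24.2 at 6 h. On the linear scale the shares of Csf2 were 60.2% and 66.8%, and that of Csf1 at 24 h was 84.9%. The order Csf1, Csf2, Lif at 6 h was the same on both scales, whereas at 24 h Csf2 and Lif differed by less than their SD on the log2 scale.

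The fold cut-offs of the study were applied to the edgeR fit with an adjusted p below 0.05. The study used DESeq2 and gives its cut-off for these cells as p below 0.05, so its own calls can differ. With a 2-fold rise under TWEAK, only Csf2 passed at 6 h, against 1.75% of all tested genes. Csf1 and Csf2 passed at 24 h, against 2.34%. Csf1 at 24 h lay just inside this cut-off at 2.02-fold, and Lif at 1.61-fold was the next below it. With the 1.5-fold cut-off for NIK SMI1, Csf1 and Csf2 were the genes lowered at 6 h, against 1.10%, and at 24 h, against 1.75%. Csf1 at 6 h was just inside at 1.52-fold, and Csf1r at 24 h just outside at 1.43-fold.

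Vehicle samples also differed between the time points. The labels give no day or batch, so time cannot be told apart from these. In vehicle, 1 of the 6, Csf1r, was higher at 24 h than at 6 h and 3, Csf2, Csf3 and Lif, were lower, against 15.5% and 14.4% of all tested genes. Csf1r rose by 0.36 on the log2 scale (SE 0.10, adjusted p = 0.00759, edgeR), Csf3 fell by 0.26 (SE 0.047, adjusted p = 0.000105) with overlapping samples, and Lif fell by 0.34 (SE 0.042, adjusted p = 4.95e-07). Csf1 and Il34 gave no call, with log2 differences of 0.02 (2 SE from -0.045 to 0.091, adjusted p = 0.672) and 0.06 (2 SE from -0.016 to 0.14, adjusted p = 0.258).

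The TWEAK effect differed between 24 h and 6 h for 5 of the 6 genes, being higher at 24 h for 4 (Csf1, Csf1r, Csf2 and Lif) and lower for Csf3, against 3.24% and 5.67% of all tested genes. By the interaction test the log2 fold change of Csf1 was greater at 24 h by 0.42 (SE 0.047, adjusted p = 3.96e-07), that of Csf1r by 0.49 (SE 0.14, adjusted p = 0.0227), that of Csf2 by 0.53 (SE 0.13, adjusted p = 0.0113) and that of Lif by 0.24 (SE 0.059, adjusted p = 0.00995). That of Csf3 was lower by 0.46 on the same scale, written as a difference of -0.46 (SE 0.066, adjusted p = 2.48e-05). For Il34 the difference was 0.07 (2 SE from -0.034 to 0.18, adjusted p = 0.494). The mean level under TWEAK was not higher at 24 h than at 6 h for Csf2 (16.4 against 25.0 CPM) or Lif (410 against 417 CPM). Vehicle means at 24 h were also below those at 6 h, at 3.42 against 7.56 CPM for Csf2 and 254 against 307 CPM for Lif. With 1 TWEAK sample left at 24 h after leaving out the 2 with islet reads, the differences were 0.54 for Csf1r and 0.52 for Csf2. That sample differed from vehicle at 24 h in islet reads as well. The call for Csf2 was lost without vehicle sample 1 or 2 at 24 h (adjusted p = 0.0519 and 0.0516), and that for Csf1r without any of 6 single samples (adjusted p 0.0529 to 0.0898).

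The effect of NIK SMI1 was further below 0 at 24 h than at 6 h for 2 of the 6 genes, Csf1 and Lif, against 1.62% of all tested genes, by -0.21 (SE 0.047, adjusted p = 0.00803) and -0.21 (SE 0.059, adjusted p = 0.0427) on the log2 scale. The call for Lif was lost in 13 of 18 fits with 1 sample left out (adjusted p 0.0517 to 0.121). With 1 TWEAK sample left at 24 h after leaving out the 2 with islet reads, the differences were -0.18 for Csf1 and -0.25 for Lif. For Csf1r, Csf2, Csf3 and Il34 the differences were -0.36, -0.31, 0.15 and -0.14, with adjusted p of 0.144, 0.132, 0.223 and 0.14.

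Per length, the 6 genes spanned a wide range, although some neighbours in the order lay close. With vehicle at 6 h the mean level of Il34 was 67.0 RPKM, that of Lif 44.5, that of Csf1 23.9, that of Csf3 17.8, that of Csf2 5.50 and that of Csf1r 1.33 RPKM. With TWEAK at 24 h the same genes stood at 84.2, 59.3, 51.3, 13.9, 11.8 and 2.65 RPKM, the same order by the exon lengths of the files. With GENCODE lengths in their place, Csf3 had 52.7 CPM per kilobase and Csf1 20.8 with vehicle at 6 h, against 41.3 and 44.9 with TWEAK at 24 h, so the place of Csf3 in this order is uncertain. With TWEAK at 6 h the GENCODE lengths also placed Lif (95.9 CPM per kilobase) above Il34 (86.5). Il34 exceeded 93.5% to 95.1% of all tested genes in RPKM, depending on the group, and Csf1r 25.3% to 33.2%. Csf2 ranged most, from 31.6% with vehicle at 24 h to 73.4% with TWEAK at 6 h, and Csf1 from 79.1% to 90.7%.

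Over the 6 groups the order of the CPM means differed from gene to gene. CPM lack the further normalization between samples (TMM) that the tests used. In the edgeR test, vehicle at 24 h and at 6 h gave no call for Csf1 (log2 0.02, adjusted p = 0.672). Csf1 was highest with TWEAK at 24 h, then with TWEAK at 6 h, with both agents at 24 h and with vehicle at 24 h, and only the lowest neighbours, vehicle and both agents at 6 h, overlapped. Csf2 and Lif were highest with TWEAK at 6 h, followed by TWEAK at 24 h, then both agents at 6 h, both agents at 24 h, vehicle at 6 h and vehicle at 24 h. In Csf2 only both agents at 24 h and vehicle at 6 h overlapped, and in Lif the TWEAK groups overlapped as well. For Il34 only the lowest group, vehicle at 6 h, stood apart from its neighbour. Csf3 had its lowest level, without overlap, with TWEAK at 24 h.

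The receptor genes for G-CSF, GM-CSF and LIF were absent or low, apart from Csf2ra and the gp130 gene. Of 8 further receptor genes 5 were tested. Csf3r, the G-CSF receptor gene, had 0 reads in all 18 samples, which allows up to 0.0577 to 0.166 CPM depending on the sample. The β chains needed for GM-CSF signalling, Csf2rb and Csf2rb2, had at most 2 reads and 1 read in a sample, while the α chain gene Csf2ra was found at group means of 10.2 to 11.8 CPM with no call in any comparison of TWEAK or NIK SMI1. Lifr was low, at 0.279 to 0.570 CPM, also without a call. The gp130 gene Il6st rose from 72.5 ± 7.07 CPM (SD, n = 3) to 117 ± 2.48 CPM with TWEAK at 6 h and from 78.5 ± 2.67 to 112 ± 6.18 CPM at 24 h (log2 0.71 and 0.51, adjusted p = 2.02e-11 and 1.18e-08, edgeR). NIK SMI1 lowered it slightly (log2 -0.18 and -0.15, adjusted p = 0.0248 and 0.039).

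The alternative receptors of IL-34 moved in opposite directions. Ptprz1, which encodes a receptor tyrosine phosphatase, was higher with TWEAK by 1.02 at 6 h (SE 0.27, adjusted p = 0.00506) and 1.26 at 24 h (SE 0.31, adjusted p = 0.00168) on the log2 scale, but its group means were 0.382 to 0.981 CPM. Sdc1, which encodes the heparan sulfate proteoglycan syndecan-1, fell from 353 ± 2.82 to 261 ± 7.75 CPM at 6 h and from 351 ± 6.26 to 255 ± 11.5 CPM at 24 h (log2 -0.42 and -0.46, adjusted p = 1.04e-10 and 1.08e-11). With NIK SMI1 it was higher than with TWEAK by 0.26 and 0.20 (adjusted p = 2.91e-06 and 5.75e-05). In all, 2 of the 5 receptors tested were higher and 1 was lower with TWEAK at each time, beside 11.7% and 12.0% of all tested genes at 6 h and 18.3% and 20.7% at 24 h, and their median log2 values were 0.15 at 6 h and 0.10 at 24 h. With NIK SMI1, 1 was higher and 1 lower at each time, beside 5.34% and 5.70% of all tested genes at 6 h and 10.2% and 8.29% at 24 h, with medians of -0.17 and -0.15.

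Other genes of the gp130 family moved in both directions. Of 5 other receptor genes 4 were tested, and with TWEAK 1 rose and 1 fell at each time, beside 11.7% and 12.0% of all tested genes at 6 h and 18.3% and 20.7% at 24 h. Osmr, the oncostatin M receptor gene, rose from 1.85 ± 0.340 to 7.20 ± 0.714 CPM at 6 h and from 2.17 ± 0.702 to 5.84 ± 1.18 CPM at 24 h (log2 1.94 and 1.5, adjusted p = 3.11e-10 and 1.16e-07), and NIK SMI1 lowered it (-0.78 and -0.53, adjusted p = 0.000892 and 0.0142). Cntfr, which encodes the ciliary neurotrophic factor receptor, fell with TWEAK (-0.56 and -0.40, adjusted p = 7.81e-08 and 1.85e-05) and was higher again with NIK SMI1 (0.39 and 0.32, adjusted p = 0.00014 and 0.000684). Of 7 other ligand genes 5 were tested. With TWEAK 0 of them rose and 1 fell at each time, beside the same shares of all tested genes (11.7% and 12.0% at 6 h, 18.3% and 20.7% at 24 h). Clcf1, which encodes a partner cytokine of the ciliary neurotrophic factor receptor, fell (-0.51 and -0.54, adjusted p = 3.38e-05 and 1.61e-05) and was higher with NIK SMI1 at 6 h (0.34, adjusted p = 0.0115). Osm had 0 reads in all samples and Il6 at most 1 read in a sample.

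Among other growth factor genes for blood cells, Kitl fell and Il7 rose. Of 8 such genes 4 were tested. With TWEAK, 0 were higher and 1 was lower at 6 h, beside 11.7% and 12.0% of all tested genes. At 24 h, 1 was higher and 1 lower, beside 18.3% and 20.7%. Kitl, the stem cell factor gene, fell from 19.2 ± 1.06 to 13.1 ± 0.565 CPM with TWEAK at 6 h and from 28.3 ± 2.81 to 9.01 ± 1.11 CPM at 24 h (log2 -0.54 and -1.66, adjusted p = 4.56e-05 and 1.26e-13). NIK SMI1 raised it by 0.86 at 24 h (adjusted p = 2.63e-07), and at 6 h the difference was 0.10 (adjusted p = 0.625). Il7, the gene of a lymphocyte growth factor, rose with TWEAK at 24 h by 0.62 (adjusted p = 0.00768). Epo had 0 reads in every sample.

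**Figure D4:**
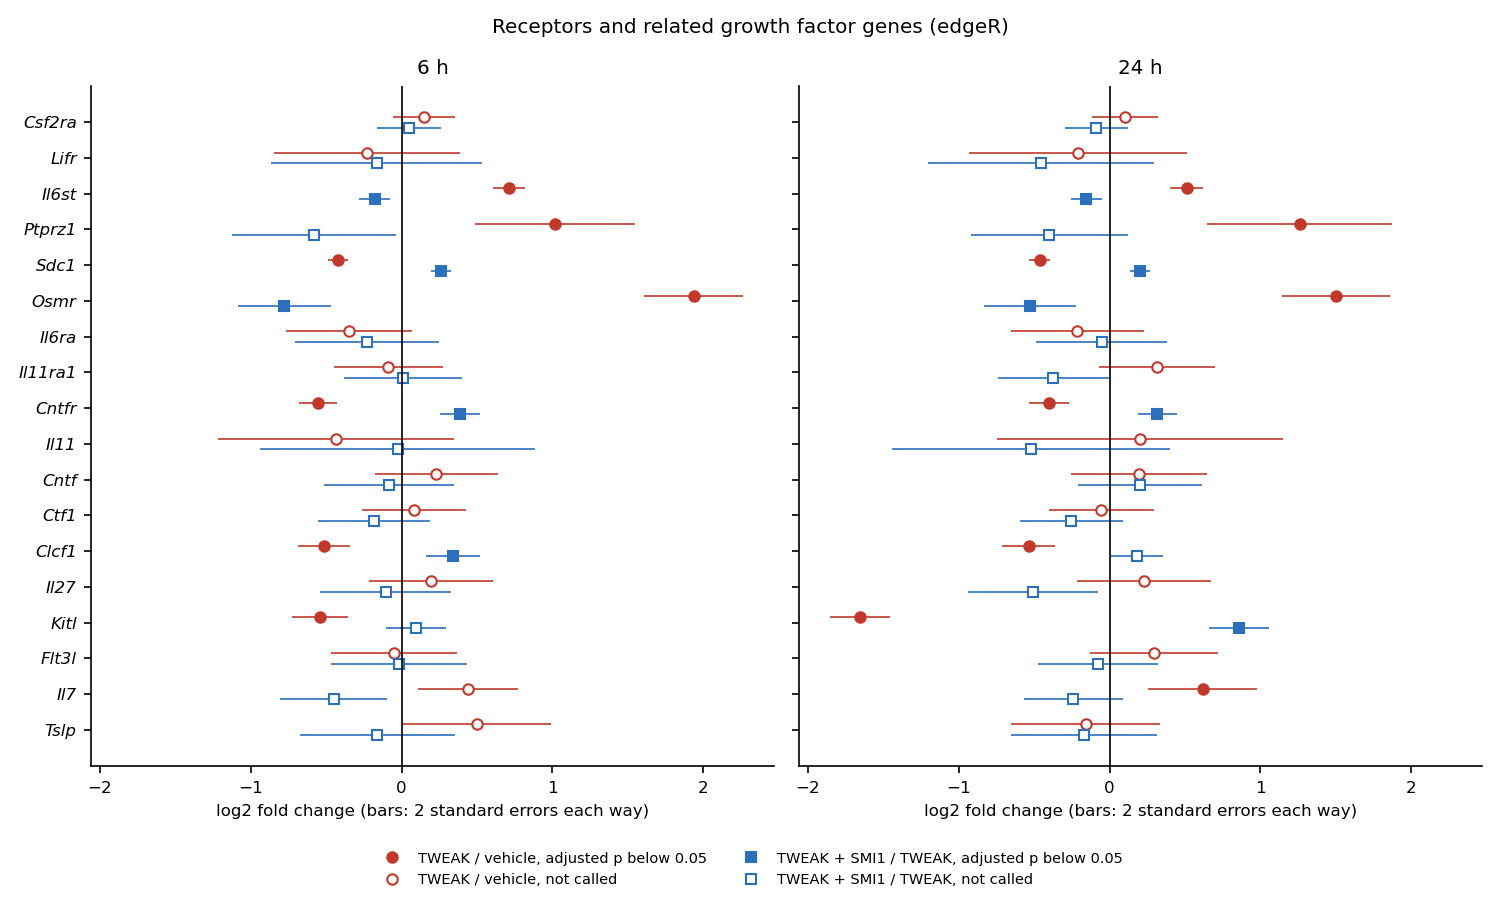
Log2 fold changes of the 18 tested receptor and growth factor genes outside the 6 at 6 h (left) and 24 h (right), for TWEAK against vehicle (red circles) and TWEAK with NIK SMI1 against TWEAK (blue squares); bars reach 2 standard errors each way and filled symbols have an adjusted p below 0.05. Osmr is highest under TWEAK (1.94 and 1.5) and Kitl lowest at 24 h (-1.66).

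For each of the 6 genes, the 3 genes with the most similar pattern were found by Pearson's r of log2 CPM over the 18 samples, among 13160 genes, as a description. The samples fall into 6 groups, so r mostly compares group levels. Nearest to Csf1 were Stra6 (r = 0.969), Clec2d (0.967) and Adgrg1 (0.965), but 0 of these 3 stayed among the first 3 on linear CPM. The nearest gene to Csf2 was Rnf19b (0.987), which stayed among the first 3 on linear CPM. Lif was followed by Riok3 (0.977), Sbno2 (0.976) and Mvp (0.972). The nearest genes were Nub1 (0.966) for Csf1r, Dok1 (0.967) for Il34 and Plet1 (0.968) for Csf3.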

How the data were processed

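RNASeq of 18 samples of primary murine RPTEC was analysed. Per the study's methods, libraries were made with the TruSeq RNA kit, and reads were aligned with GSNAP through HTSeqGenie to the mouse genome (NCBI build 37). The submitters' processing notes also name DESeq2. The authors deposited, for each of 36528 Entrez genes, the count of uniquely aligned reads in its exons, without normalization. The same deposited files give RPKM, scaled by the authors for exon length and total reads, and the exon length itself. Labels and methods differ on the sequencer, read length and input RNA. Because tests used counts, the RPKM values served only to compare levels between genes and, as the ratio of Il34 to Csf1, to describe the groups.

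CPM are counts scaled to 1000000 assigned reads. Genes with over 10 reads in 4 or more samples (15521) were fitted as 6 groups of 3 in edgeR 4.0.16 under R 4.3.3 (TMM normalization, quasi-likelihood test, two-sided), with Benjamini-Hochberg adjustment over all of them and a call at an adjusted p below 0.05. The common biological coefficient of variation was 0.0404 and TMM factors lay between 0.964 and 1.03. With 3 against 3 samples, an exact permutation test of 1 gene cannot go below p = 0.1, so only the fit over all genes was used. Total counts of 18040966 to 51956444 set the precision. Symbols came from RefSeq and GENCODE tables of GRCm38 by identifier (31049 of 36528 matched), and no position was converted between builds.

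The genes named are the 6 members, every gene of the fixed receptor and growth factor lists that passed the threshold, defining members of those lists without reads, the neighbours of Csf3, cell-type markers and, of the 3 most similar genes per member, 10 in all. A result is not reported here. The labels give no replicate numbers, and samples are numbered 1 to 3 within a group in the order of deposit, only as names. Members and lists were chosen with earlier results of these data known. Alternatives were DESeq2 1.42.0, its size factors in edgeR, filterByExpr, no filter, robust dispersion, fits of only the groups compared, fold cut-offs, linear CPM, and leaving out each sample in turn. Leaving out the TWEAK samples with islet reads at 24 h was added after the data had been seen. Scripts were tested on simulated data.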

Additional observations from a re-analysis of the deposited data

Results flagged for a closer look

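For 5 of the 6 genes the log2 fold change under TWEAK differed between 24 h and 6 h by the interaction test of edgeR. The difference was 0.42 for Csf1, 0.49 for Csf1r, 0.53 for Csf2 and 0.24 for Lif, each greater at 24 h, and -0.46 for Csf3, whose change turned from higher to lower. The change with NIK SMI1 differed between the times for Csf1 (-0.21) and Lif (-0.21), both further below 0 at 24 h. No cause of these differences was tested.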

How the results depend on the processing

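Of 1350 fold changes of the 6 genes recomputed under alternatives, 1305 kept direction and side of the threshold, 37 lost and 1 gained a call, and 7 changed sign, and 40 of 54 results kept both in every alternative. The 7 were small differences without a call: Csf1 with both agents against vehicle at 6 h (0.0026, 0.0048, 0.0128 and 0.0129), Csf1r in the same comparison (0.0039) and at 24 h (-0.0143), and Csf1r with TWEAK against vehicle at 6 h (-0.0033), each without 1 sample. Over all fits with 1 sample left out these ranged from -0.0423 to 0.0129, -0.15 to 0.0039, -0.0143 to 0.10 and -0.0033 to 0.16. With the fold cut-offs of the study, the number of the 6 genes called fell to 1 and 2 for TWEAK at 6 h and 24 h, 2 for NIK SMI1 at 6 h (from 3) and at 24 h (from 4), 0 and 1 for both agents against vehicle, and 1 for time. Without each sample in turn, the number with a TWEAK effect that differed by time was 3 to 5 and that for NIK SMI1 1 to 2. Linear CPM gave shares removed of 60.2% and 66.8% for Csf2 and 84.9% for Csf1 at 24 h, and kept 0 of 3 similar genes for Csf1 and 1 of 3 for Csf2. Without each sample in turn, the share removed for Csf2 at 24 h was 46.3% to 52.2%. In fits of only the groups compared, Il34 gained a call for NIK SMI1 at 24 h (-0.09, adjusted p = 0.0478) and Csf3 lost that for both agents against vehicle at 6 h (0.20, adjusted p = 0.0514). The cause of these changes was not tested. No paired analysis was possible because the labels give no replicate numbers, and the sample numbers used here are only names.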
